A study of Mus musculus with 6 samples.

Results

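The core-binding factor genes Runx1, Runx2, Runx3 and Cbfb and the Eto family genes Runx1t1, Cbfa2t2 and Cbfa2t3 were sought on 6 Affymetrix Mouse430_2 arrays. Their probe sets were chosen by gene symbol, as every probe set of the deposited value table that carried 1 of these 7 symbols and no other. This gave 21 of 28821 probe sets, for 6 of the 7 genes: 6 for Runx1, 5 for Runx1t1, 4 for Cbfa2t3, 3 for Cbfa2t2, 2 for Runx3 and 1 for Cbfb. No probe set of the table carried Runx2 alone, so its expression was not analysed here. RNA came from sorted Lin-/Sca1-/cKit+ cells, a fraction of committed myeloid progenitors. The 3 leukemia samples were spleen cells of numbered MF1 mice, 12 to 16 weeks old, that had been lethally irradiated and given hematopoietic progenitors transduced with AE9a, a truncated form of the AML1-ETO fusion. The 3 wild-type samples were bone marrow cells of MF1 mice of the same age, whose labels name no transplant and do not say whether animals were pooled. Organ, transplantation and AE9a therefore differ together between the groups, and their parts in any difference cannot be told apart. In such bulk samples a smaller share of cells of a type and less RNA per cell cannot be told apart either. All values are log2 of the deposited intensity, and values of 3 arrays stand in the order of replicates 1, 2 and 3. Each array was run from 200 ng of total RNA, and 3 arrays a group limit the precision.

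Runx proteins are the DNA-binding subunits of core-binding factor, and Cbfb is their shared partner, which binds no DNA itself but raises the affinity of the Runx subunit and protects it from degradation. Runx1 is needed for blood stem cells to form in the embryo and later for myeloid, lymphoid and platelet lineages. The Eto proteins do not read a DNA sequence of their own. They are brought to DNA by other factors, such as the E proteins and the Tal1 complex, and carry the NCoR, SMRT and Sin3 corepressors with their histone deacetylases. AML1-ETO joins the Runt domain of Runx1 (AML1) to most of Runx1t1 (ETO), so that the fusion unites both families in 1 protein. The labels do not say whether the transduced AE9a sequence is of mouse or human origin, and the sources used here do not give the part of each transcript that a probe set covers. Whether any Runx1 or Runx1t1 probe set reads the transduced fusion was not tested.

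The 3 Runx genes share a stretch of sequence beside their listed start sites, shown here because it holds the letters that Runx proteins themselves bind. Windows of 30 bases from RefSeq (GRCm38.p6) are given 5′ to 3′ on the gene's strand, and capitals mark matches to TGTGGT or TGCGGT on either strand.
Runx1 distal promoter, chr16:92826025-92826054, minus strand: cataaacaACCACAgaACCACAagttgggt
Runx2, chr17:44814583-44814612, minus strand: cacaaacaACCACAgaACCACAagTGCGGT
Runx3 distal promoter, chr4:135120503-135120532, plus strand: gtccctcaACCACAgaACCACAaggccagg
Each window carries 2 copies of ACCACA, the reverse complement of TGTGGT, 2 bases apart. The copies lie after the start site in Runx1 (the window spans bases 21 to 50) and Runx2 (bases 16 to 45), and before it in Runx3 (from -142 to -113). The spacing was chosen after these sequences were seen. Of 32851 RefSeq promoters of the same length (250 bases before to 50 after a start), 7 hold this pair on either strand (0.0213%), and 3 of the 7 are these Runx promoters. A single TGTGGT or TGCGGT on either strand is common, with 22.4% of promoters holding at least 1. Of the 9 listed promoters of 6 of the 7 genes, 4 hold one, namely the 3 above and the distal promoter of Cbfa2t3. The proximal promoters of Runx1, Runx3 and Cbfa2t3 and the listed promoters of Cbfb and Cbfa2t2 show no match. This says only that these letters are not in those windows. The probe sets were not assigned to promoters, so the arrays do not separate the transcripts from the distal and proximal starts.

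The arrays of the leukemia group differed among themselves more than the wild-type arrays did. Over all probe sets Pearson's r was 0.992 to 0.994 within wild-type, and leukemia replicate 1 stood apart at 0.969 and 0.970 to the other leukemia arrays, against 0.978 between those. Arrays with the same hybridization date entry in their run records were taken as sharing a fluidics run. Leukemia replicate 1 shared this entry with all wild-type arrays, and leukemia replicates 2 and 3 shared another. It had the highest 18S ribosomal RNA signal (5′ probe set), at 12.35 against 11.25 and 11.14 on the other leukemia arrays and 7.77 to 9.41 in wild-type, and the highest 3′ minus 5′ difference of Gapdh, at 0.31 against -0.14 to 0.08 on the other 5 arrays. Kit, the receptor used for the sort, fell by 0.76, from 10.39 in wild-type to 9.64 in leukemia, both far above the dim limit. Of the other measured progenitor markers Myb fell by 0.71, Cd34 fell by 3.60 and Flt3 fell by 3.95, and Gata2 gave -0.11 and did not pass. Dim markers were 3 of 4 for B cells, 3 of 3 for T and NK cells, 4 of 4 for granulocytes, 4 of 6 for endothelium and stroma, 3 of 8 for macrophages and dendritic cells and 1 of 8 for mast cells and basophils, and 0 of 5 and 0 of 6 for erythroblasts and megakaryocytes. Of 8 mast cell and basophil markers 4 rose and 1 fell, and their summed intensity was 13529 to 25727 in leukemia against 5470 to 6240 in wild-type. Of 6 megakaryocyte and platelet markers 1 rose and 5 fell, and of 6 endothelial and stromal markers 0 rose and 2 fell. Of 5 erythroblast markers 3 rose and 0 fell, with a summed intensity of 2446, 5907 and 6550 on leukemia replicates 1, 2 and 3 against 4310 to 6373 in wild-type. The part of these cell types in the results that follow was not tested.

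Runx1 and Runx1t1, the mouse counterparts of the 2 parts of the fusion, were higher in leukemia, by about 3-fold for most Runx1 probe sets and from a dim level for Runx1t1. Cbfa2t2 was higher with 1 of its 3 probe sets and Cbfa2t3 lower with 1 of its 4. No probe set of Runx3 or Cbfb passed the test. Of the 21 probe sets 10 rose and 1 fell, 11 in all (limma, adjusted p under 0.05). Of all 28782 probe sets tested 28.4% changed, 12.8% higher and 15.6% lower. The median change of the 21 was 0.72 against 0.01 over all probe sets, and the median size of change, sign aside, 0.96 against 0.31. The 21 read only 6 genes, so several are readings of the same gene. In a fit with 1 probe set per gene 3 of the 6 changed, beside 34.4% of all 13146 genes. Leukemia and wild-type arrays were fully separated for 16 of the 21, as they were for 48.0% of all probe sets. A probe set was marked dim where fewer than 3 arrays reached their own 40th percentile of all probe sets (5.39 to 5.54 log2). Of 15 members that were not dim 8 changed, beside 35.7% of all such probe sets, and of 6 dim members 3 changed, beside 16.1%. Without wild-type replicate 1, 2 or 3 the count of 11 fell to 4, 2 and 2, and the share of all probe sets that changed fell to 19.8%, 16.5% and 16.4%.

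**Figure D1:**
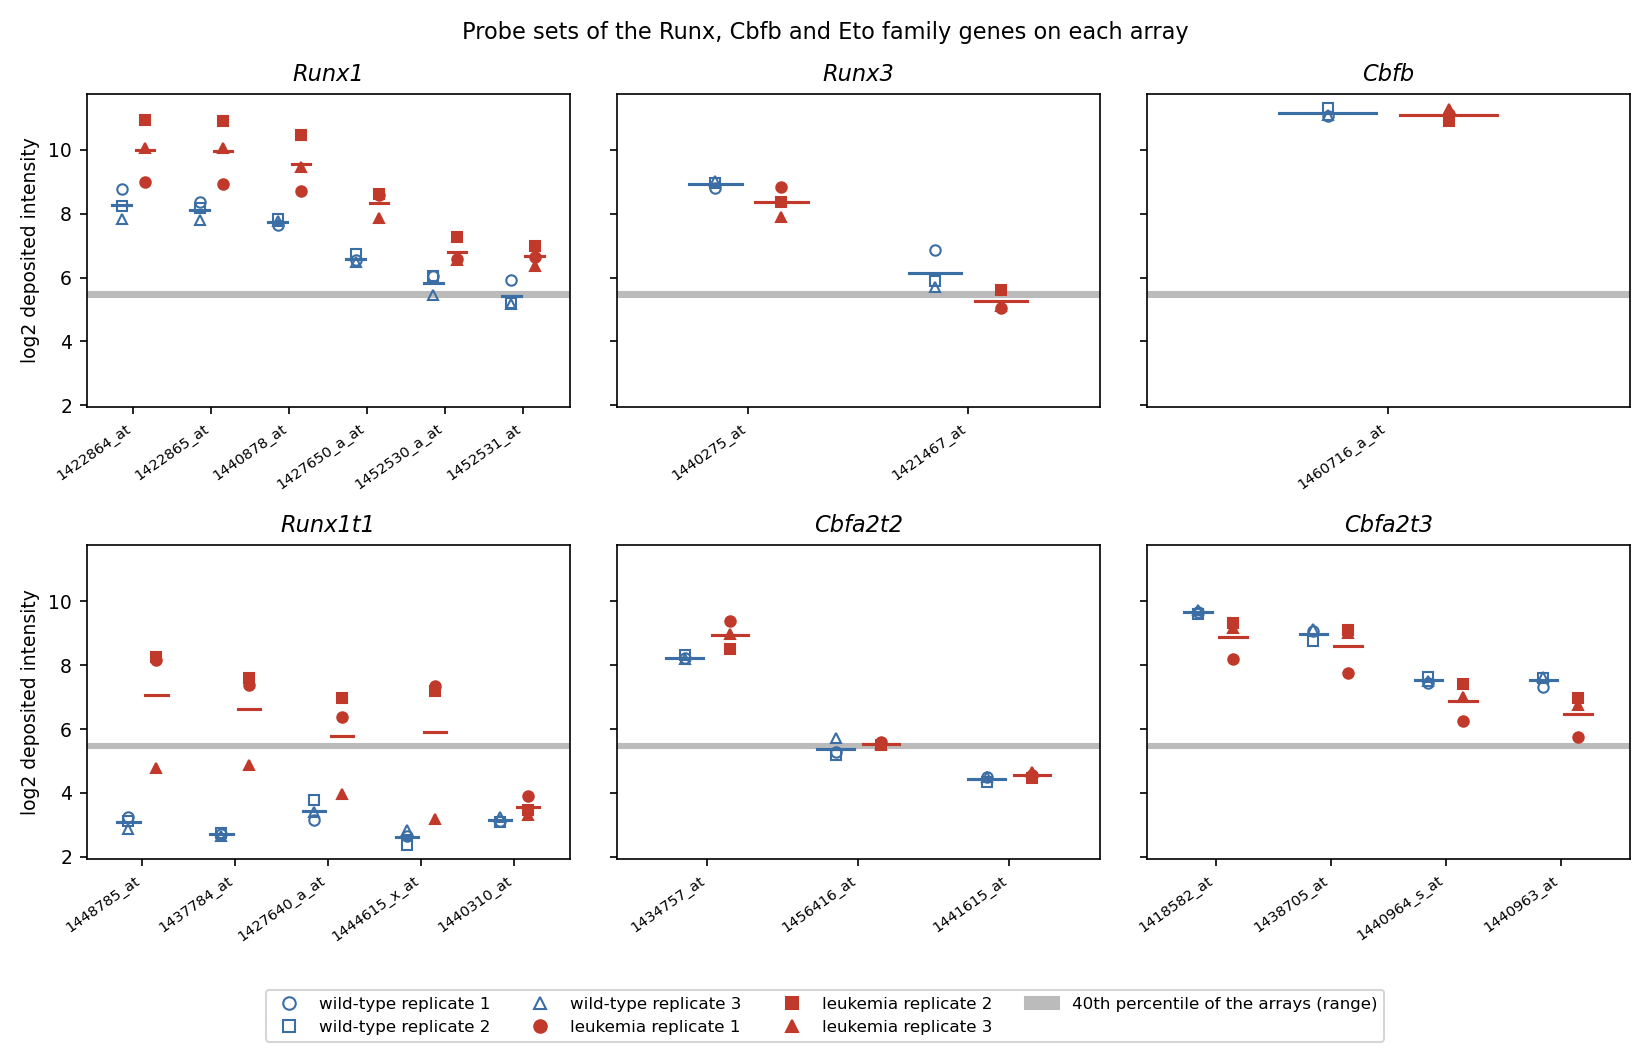
Log2 deposited intensity (vertical axis) of each of the 21 probe sets on the 3 wild-type arrays (open blue) and the 3 leukemia arrays (filled red), one panel per gene, with short lines at the group means and a grey band over the range of the arrays' 40th percentiles. All 6 Runx1 probe sets lie higher on every leukemia array, and for 4 Runx1t1 probe sets leukemia replicates 1 and 2 lie above the band while leukemia replicate 3 lies below it.

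Runx1, the DNA-binding subunit whose Runt domain is part of the fusion, was higher in leukemia with all 6 of its probe sets. Its brightest probe set, 1422864_at, was at 8.78, 8.25 and 7.83 on wild-type replicates 1, 2 and 3 and at 9.0, 10.93 and 10.07 on leukemia replicates 1, 2 and 3. The lowest leukemia array lay just above the highest wild-type array, and leukemia replicate 2 was the highest. The SD was 0.47 in wild-type and 0.97 in leukemia (n = 3 each), and the means differed by a 3.28-fold rise (change 1.71 ± 0.47 SE, limma adjusted p = 0.0344). Probe set 1422865_at gave nearly the same arrays, from 8.38, 8.17 and 7.80 to 8.92, 10.91 and 10.07, and rose by 1.85 (limma adjusted p = 0.0232). Probe set 1440878_at had the tightest wild-type values, 7.65, 7.82 and 7.78, against 8.73, 10.46 and 9.48 in leukemia, and rose by 1.80 (limma adjusted p = 0.0143).

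The other 3 Runx1 probe sets were dimmer and ordered the leukemia arrays differently. For 1427650_a_at the wild-type arrays were at 6.54, 6.72 and 6.49 and the leukemia arrays at 8.57, 8.61 and 7.85. Here leukemia replicates 1 and 2 were nearly equal and replicate 3 was the lowest, and the gap between the groups was 1.13. This gave the smallest adjusted p of the 21 probe sets (change 1.76 ± 0.23 SE, limma adjusted p = 0.00169). Probe set 1452531_at went from 5.93, 5.20 and 5.16 to 6.64, 6.97 and 6.36 and rose by 1.23 (limma adjusted p = 0.0137), with 2 of its wild-type arrays under the dim limit. Probe set 1452530_a_at went from 6.06, 6.03 and 5.44 to 6.58, 7.27 and 6.55 and rose by 0.96 (limma adjusted p = 0.0355). Leukemia replicate 2 was thus the highest array for all 6 probe sets. The lowest leukemia array was replicate 1 for the 3 brighter probe sets and replicate 3 for the 3 dimmer ones.

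How firmly the Runx1 rise was called depended on the probe set. With 1427650_a_at the call was kept with any single array left out (changes 1.63 to 2.00, limma adjusted p 5.34e-04 to 0.0124) and in a fit blocked on the fluidics run (1.99, adjusted p = 0.00345). The blocked change compares only leukemia replicate 1 with the wild-type arrays. With 1422864_at the call was lost without wild-type replicate 1, 2 or 3 (limma adjusted p = 0.0521, 0.107 and 0.122), without leukemia replicate 2 or 3 (0.0593 and 0.0741) and with the block (0.72, adjusted p = 0.246). With the block 1452531_at was still called at 1.22 (limma adjusted p = 0.0498), while 1422865_at, 1440878_at and 1452530_a_at gave 0.81, 0.97 and 0.74 and were not. Leaving out wild-type replicate 1, 2 or 3 ended the calls of 1422865_at (limma adjusted p = 0.0540, 0.0760 and 0.0885), 1440878_at (0.0516, 0.0526 and 0.0537) and 1452530_a_at (0.0640, 0.0781 and 0.121). Leaving out wild-type replicate 2 or 3 ended that of 1452531_at (limma adjusted p = 0.0618 and 0.0611). The calls of 1422865_at and 1452530_a_at also ended without leukemia replicate 3 (limma adjusted p = 0.0556) and replicate 2 (0.0746) respectively.

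Runx3, the paralog known for its roles in T cells, NK cells and dendritic cells, did not pass the test with either probe set, and both gave lower means in leukemia. Its brighter probe set, 1440275_at, was at 8.80, 8.97 and 9.03 in wild-type, and leukemia gave 8.85, 8.37 and 7.89. Leukemia replicate 1 lay within the wild-type range and the other 2 leukemia arrays below it. The change was -0.56 ± 0.24 SE (limma adjusted p = 0.120, 95% interval -1.12 to -0.01). It passed when leukemia replicate 1 was left out (-0.80, limma adjusted p = 0.0124). Blocked on the run, which rests on that array, it was -0.09 (limma adjusted p = 0.786). Without leukemia replicate 3 it was -0.32 and did not pass. The dimmer probe set, 1421467_at, was at 6.86, 5.88 and 5.69 against 5.05, 5.62 and 5.10. Its groups did not overlap, and its change was -0.88 (limma adjusted p = 0.0895).

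Cbfb, the common partner of the Runx proteins, differed between the groups by less than the spread within them. Its probe set was at 11.07, 11.32 and 11.09 in wild-type and at 11.13, 10.90 and 11.29 in leukemia, with overlapping groups. The change was -0.05 ± 0.12 SE (limma adjusted p = 0.762), with a 95% interval from -0.33 to 0.22. That interval leaves out the change of each Runx1 probe set, as estimated here. Within each array, the difference between Runx1 and Cbfb (brightest probe sets) moved up by 1.77 in leukemia and that between Runx1 and Runx3 by 2.28. Taken from the wild-type mean, the Runx1 to Runx3 difference was at 0.62, -0.07 and -0.55 for wild-type, while leukemia gave 0.80, 3.21 and 2.82. The groups did not overlap for either pair (two-sided exact permutation p = 0.1 each, the lowest possible with 3 arrays a group, and 0.1 after Benjamini-Hochberg over the 4 pairs compared).

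**Figure D2:**
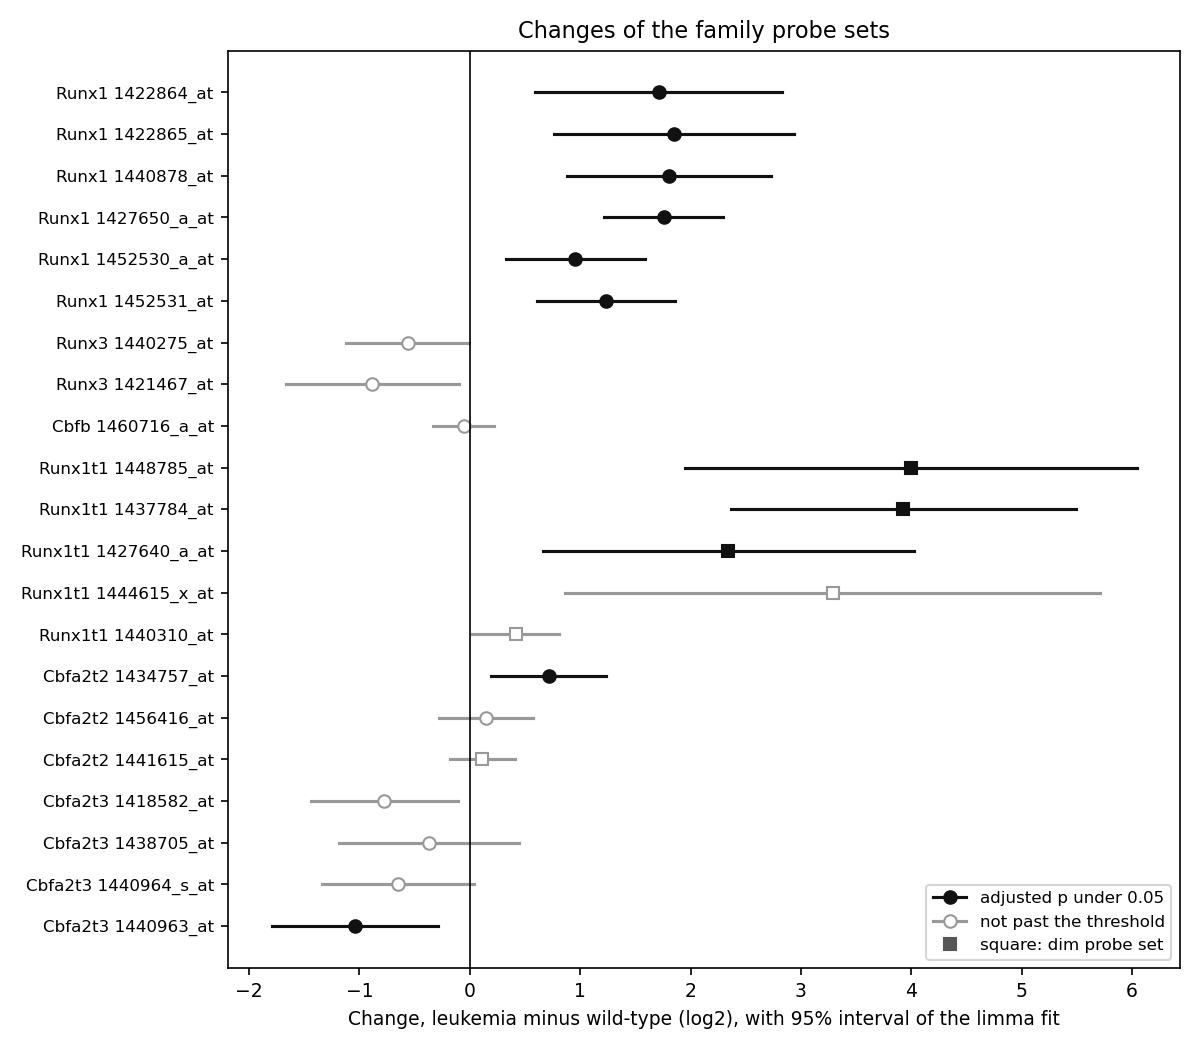
Change from wild-type to leukemia on the log2 scale (horizontal axis) for each of the 21 probe sets, with the 95% interval of the limma fit. Black symbols passed an adjusted p of 0.05, grey open symbols did not, and squares are dim probe sets. The 6 Runx1 probe sets lie between 0.96 and 1.85, and the 5 Runx1t1 probe sets between 0.42 and 3.995, measured from wild-type values under the dim limit.

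Runx1t1, the ETO corepressor gene, was near the bottom of the wild-type arrays and high on 2 of the 3 leukemia arrays. Its brightest probe set, 1448785_at, was at 3.25, 3.13 and 2.86 in wild-type, and leukemia gave 8.15, 8.27 and 4.79. These values lay at the 4.57 to 9.11 percentiles of their arrays in wild-type and at the 73.6, 74.7 and 31.7 percentiles in leukemia. Leukemia replicate 3 thus lay above every wild-type array but below the dim limit. The change was 3.995 ± 0.87 SE from 3.08 ± 0.20 to 7.07 ± 1.98 (SD, n = 3 each, limma adjusted p = 0.0142). With the wild-type value replaced by the 40th percentile of those arrays, the leukemia mean was at least 2.93-fold higher. With 16 added before the log the change was 2.73 (limma adjusted p = 0.0299). The call was lost without wild-type replicate 2 (limma adjusted p = 0.0546) or 3 (0.0580), and without leukemia replicate 3 the change was 5.14 (adjusted p = 4.74e-05).

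The further Runx1t1 probe sets split the leukemia arrays in the same way, except the dimmest. Probe set 1437784_at was at 2.71, 2.74 and 2.64 in wild-type and at 7.39, 7.60 and 4.88 in leukemia, and rose by 3.93 (limma adjusted p = 0.00517), a call kept with any single array left out (adjusted p 3.89e-05 to 0.0268). Set against the wild-type 40th percentile the rise was at least 2.15-fold, and with 16 added before the log the change was 2.42. Probe set 1427640_a_at was at 3.14, 3.76 and 3.39 against 6.39, 6.97 and 3.97, and rose by 2.34 (limma adjusted p = 0.0468), or at least 1.19-fold over the 40th percentile. That call was lost without any 1 of the 5 arrays other than leukemia replicate 3 (limma adjusted p 0.0993 to 0.132), in the blocked fit (0.0640), with 16 added (0.0634) and without the intensity trend (0.0594). On leukemia replicate 3 it was only 0.20 above the highest wild-type array. Probe set 1444615_x_at was at 2.66, 2.37 and 2.83 against 7.36, 7.18 and 3.19, a change of 3.29 that missed the threshold (limma adjusted p = 0.0515) and passed without leukemia replicate 3 (4.65, adjusted p = 5.78e-05), in the blocked fit (4.74, 0.0331), with arrays centred (3.37, 0.0465) and with array weights (3.07, 0.0282). Its ending _x marks a probe set that may bind other transcripts. Probe set 1440310_at stayed under the dim limit on all 6 arrays, at 3.10, 3.07 and 3.23 against 3.91, 3.46 and 3.29 (change 0.42, limma adjusted p = 0.105), and passed without leukemia replicate 3 (0.55, adjusted p = 0.0494) and in the blocked fit (0.77, 0.00841), with no fold since both groups were dim.

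Cbfa2t2, the Eto family member also called MTGR1, was higher with its brightest probe set. It was at 8.21, 8.31 and 8.19 in wild-type and at 9.39, 8.50 and 8.97 in leukemia, so that every leukemia array lay above the wild-type arrays and replicate 1 was the highest. The rise was 1.64-fold (change 0.72 ± 0.22 SE, limma adjusted p = 0.0490). The call was lost without wild-type replicate 1, 2 or 3 (limma adjusted p = 0.126, 0.118 and 0.144), without leukemia replicate 1 (0.50, adjusted p = 0.0525) or 3 (0.71, 0.0975), and without the intensity trend (0.0569). In the blocked fit it was 1.15 (limma adjusted p = 0.00574). The other Cbfa2t2 probe sets, 1456416_at and the dim 1441615_at, gave overlapping groups, with changes of 0.15 and 0.12 (limma adjusted p = 0.587 and 0.527).

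Cbfa2t3, or ETO2, the family member that works in the Tal1 complex of erythroid and megakaryocytic precursors, gave lower means in leukemia with all 4 probe sets, and 1 of them passed. The brightest, 1418582_at, was at 9.68, 9.61 and 9.72 in wild-type and at 8.19, 9.34 and 9.16 in leukemia. Replicate 1 was more than 1 log2 unit below the wild-type arrays and the other 2 were closer to them. The change was -0.77 ± 0.28 SE (limma adjusted p = 0.0825). It passed without leukemia replicate 1, when the spread was smaller (-0.42, limma adjusted p = 0.0149). It also passed with leukemia replicate 2 left out (-0.99, limma adjusted p = 0.0416) and in the blocked fit (-1.48, limma adjusted p = 4.72e-04).

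Probe set 1440963_at of Cbfa2t3 was at 7.32, 7.60 and 7.64 against 5.74, 6.97 and 6.74, and fell by 1.04 (limma adjusted p = 0.0490). Leaving out wild-type replicate 1, 2 or 3 ended that call (limma adjusted p = 0.0903, 0.145 and 0.150), as did leaving out leukemia replicate 3 (0.0595) or the intensity trend (0.0547). Without leukemia replicate 1 it was -0.67 (limma adjusted p = 0.0208) and with the block -1.78 (adjusted p = 0.00145). Probe set 1440964_s_at, whose ending _s marks probes shared by several transcripts, was at 7.45, 7.64 and 7.52 against 6.24, 7.42 and 7.01 (change -0.65, limma adjusted p = 0.142), and passed when leukemia replicate 2 was left out (-0.91, limma adjusted p = 0.0455) and in the blocked fit (-1.30, 0.00433). Probe set 1438705_at was at 9.07, 8.76 and 9.12 against 7.77, 9.09 and 9.0, and leukemia replicates 2 and 3 lay within the wild-type range. Its change was -0.37 (limma adjusted p = 0.469), 0.06 without leukemia replicate 1 and -1.22 in the blocked fit, which called it (limma adjusted p = 0.00282). Leukemia replicate 1, the lowest array for all 4 probe sets, also had the lowest summed erythroblast markers of the leukemia arrays (2446, against 5907 and 6550) and the highest 18S signal. Its summed megakaryocyte markers were the lowest too (762, against 1613 and 1655). That order followed Gp5, the brightest of them on each leukemia array (8.94, 10.39 and 10.44). Vwf was also lowest on replicate 1, but Itga2b, Pf4, Gp9 and Ppbp were not. The part of these markers and of the 18S signal in the Cbfa2t3 values was not tested.

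The Eto family genes were set against each other within arrays. In each array the difference between Cbfa2t2 and Cbfa2t3 (brightest probe sets), taken from its wild-type mean, was between -0.10 and 0.13 for wild-type, while leukemia gave 2.63, 0.59 and 1.25. That between Runx1t1 and Cbfa2t3 was between -0.27 and 0.16 in wild-type and at 6.56, 5.53 and 2.22 in leukemia. The shifts were 1.49 and 4.77, the second being 2.32 with Runx1t1 raised to the dim limit on the wild-type arrays. The groups did not overlap for either (two-sided exact permutation p = 0.1 each, again the lowest possible).

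**Figure D3:**
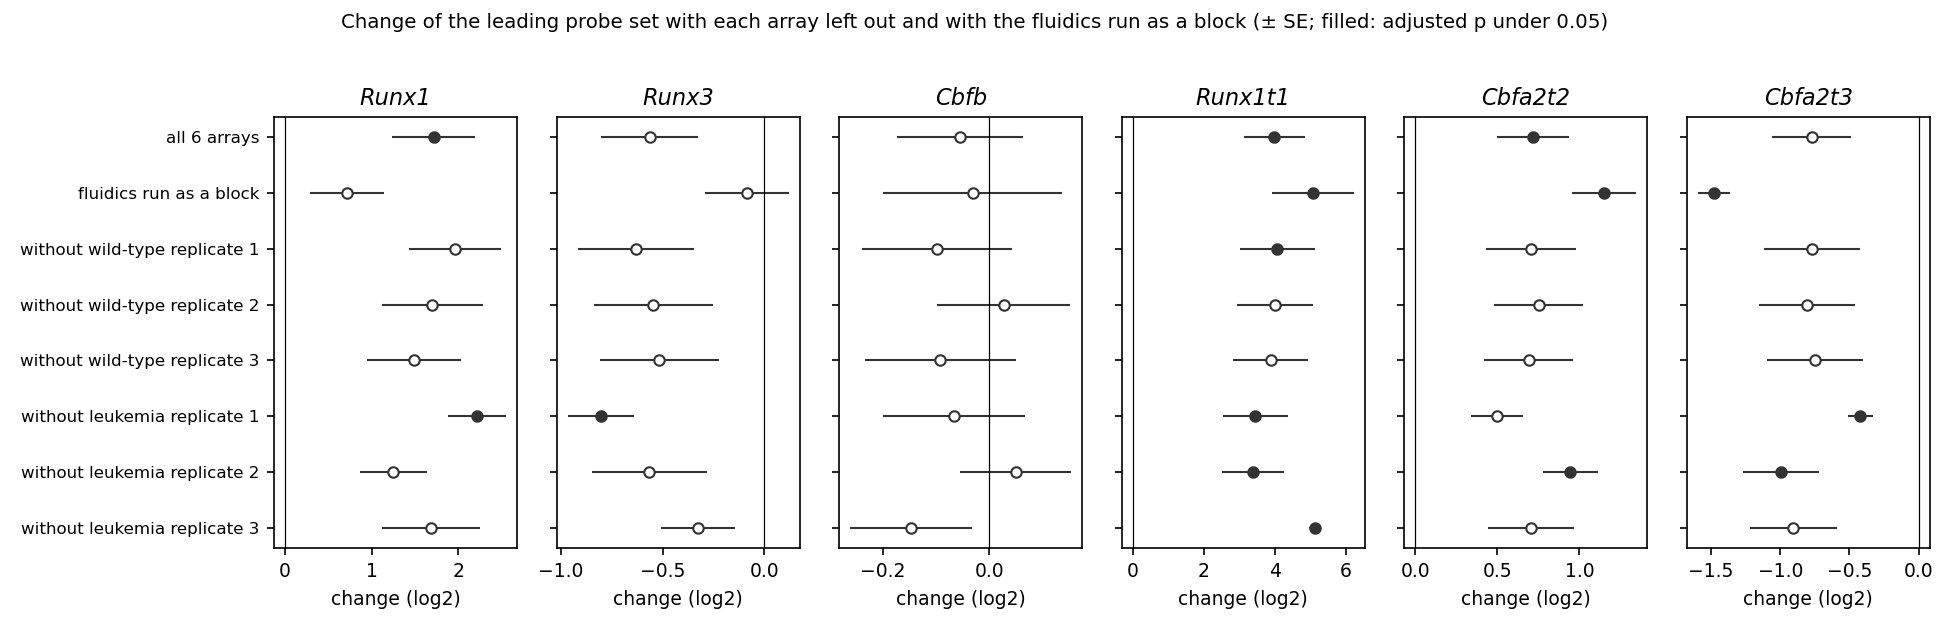
Change of the brightest probe set of each gene on the log2 scale (horizontal axes, which differ between panels, ± SE) with all 6 arrays, blocked on the fluidics run, and with each array left out, filled where the adjusted p was under 0.05. Runx1 lies between 0.72 and 2.21 and Cbfa2t3 between -1.48 and -0.42, and the block and leukemia replicate 1 mark the ends of both ranges.

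The genes whose brightest probe set followed that of Runx1 most closely over the 6 arrays were sought among 13140 other genes, by the root mean square difference after each was centred on its own mean. The first were Oas1a, an interferon-induced synthetase (difference 0.27 log2), Gm20161 (0.28) and the kidney salt transporter gene Slc12a1 (0.31). The nuclear receptor gene Ppard (0.31) and Tnfsf10, which encodes the death ligand TRAIL (0.34), came next. Gm20161 and Slc12a1 were dim, and Slc12a1 did not pass the test (limma adjusted p = 0.0534). Of the 5 nearest to Runx1t1 the first were the protease inhibitor gene Spink2 (0.53), Arhgef16 (0.56) and Wtip (0.68). Next came the secreted carbonic anhydrase gene Car6 (0.75) and Xist, the RNA of the inactive X chromosome (0.77). Wtip and Car6 were dim. Spink2 was at 3.93, 4.17 and 4.11 in wild-type and at 9.0, 9.16 and 7.07 in leukemia. Xist was at 4.73, 4.70 and 4.23 in wild-type, and leukemia gave 11.02, 9.41 and 5.03. It was dim and did not pass the test (limma adjusted p = 0.0696), and the order of its arrays follows from its choice by likeness. The part of the sex of the cells in the Runx1t1 values was not tested.

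Genes that work with core-binding factor and the Eto proteins were read from the same fit, by the brightest probe set of each. Of 150 listed genes 129 were measured, and 24 rose, 48 fell and 57 did not pass. Over all 13146 genes 32.9% changed by this reading, 12.7% higher and 20.2% lower, with a median of -0.04. Some genes stand in more than 1 list, and the lists were drawn up with earlier results of these arrays known. Dim genes were counted too, 2 of 17, 2 of 30 and 2 of 21 in the first lists below. The later lists held 0 of 19, 7 of 34 and 5 of 22. Where every array of the lower group lay under the dim limit, the fold is given as a lower bound against that limit.

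Transcription factors that bind beside Runx proteins moved both ways. Of 17 measured 5 rose and 5 fell, with a median of 0.26. Gata3, the T cell and mast cell GATA factor, was at least 8.81-fold higher. The AP-1 gene Jun rose by 2.69 (limma adjusted p = 0.0463), or 2.57 with its 1 wild-type array under the limit raised to it. Leukemia replicate 1 was the highest for Jun, at 10.39 against 7.29 and 7.22 on replicates 2 and 3. The other Jun probe set gave 1.83 and did not pass. Of the C/EBP factors of granulocytes and macrophages, Cebpa was at least 21.8-fold lower and Cebpb fell by 3.76 (11.8-fold with its 2 leukemia arrays under the limit raised to it). With arrays of the lower group raised to the limit in this way, the list's median was 0. Without wild-type replicate 1, 2 or 3 the rises were 2, 2 and 3. Of 30 coactivators, modifying enzymes and corepressors of Runx proteins 6 rose and 9 fell, with a median of -0.23. The Groucho corepressor gene Tle1 rose by 1.6 and the kinase gene Hipk2 by 1.57, and the largest falls were smaller, as the deacetylase gene Hdac6 fell by 0.93 and the ubiquitin ligase gene Stub1 fell by 0.89. Without wild-type replicate 3 the falls were 5.

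Of 21 genes of the Eto corepressor complex 3 rose and 8 fell, with a median of -0.01 and the dim gene Bcl6 among the falls. Of its deacetylase genes, Hdac3 gave -0.01 and Hdac1 gave 0.15, neither past the test, and Hdac2 fell by 0.46. Prkar2a, the kinase A subunit that Eto proteins anchor, rose by 1.19 and the scaffold gene Sin3b by 0.70, though another Sin3b probe set changed the opposite way. The zinc finger repressor genes Gfi1 and Zbtb16, whose proteins bind Eto proteins, were at least 8.56-fold and at least 4.85-fold lower, while Gfi1b gave 0.00 and did not pass. Without wild-type replicate 1, 2 or 3 the falls were 5 each time, and in the blocked fit 5 of the 21 rose. Of 19 genes of the E protein and Tal1 complexes 3 rose and 4 fell, with a median of -0.21. Id1, an inhibitor of E proteins, rose by 2.23 and the adaptor gene Ssbp3 by 1.00, while the E protein genes Tcf4 and Tcf3 fell by 3.54 and fell by 1.56. Tcf4 lay under the limit on leukemia replicates 2 and 3, and was 6.51-fold lower with those raised to it. In the blocked fit 9 of the 19 fell. Without wild-type replicate 1, 2 or 3 the falls were 2, 2 and 1, and the rises 1, 1 and 2.

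Known Runx target genes were mostly lower. Their list is mainly of myeloid and megakaryocytic cells but also holds lymphoid genes. Of these Vpreb1 fell, and Igll1 and Rag1 did not pass the test. Of 34 measured 21 fell and 3 rose, with a median of -1.11, or -0.75 with arrays of the lower group raised to the dim limit. The falls include Itgam, Ccl3 and Cd36, which lay under the dim limit on every array of both groups. Mpo, the primary granule peroxidase, was at least 259-fold lower. Ctsg, a primary granule protease, fell by 7.81 and was 141-fold lower with its 2 leukemia arrays under the limit raised to it. The kinase gene Prkcq rose by 1.99 and the cell cycle inhibitor gene Cdkn1a by 1.33. Of 22 genes commonly linked to AML1-ETO 7 rose and 8 fell, with a median of -0.21, or 0 at the dim limit. The rises include Mycn and the dim genes Jup and Pou4f1, and the falls include the dim gene Igfbp7. Csf1r, the macrophage growth factor receptor, was at least 36.6-fold lower and Egr1, an immediate early factor, rose by 2.57. The brightest Mycn probe set was at least 53.2-fold higher and a different one fell by 3.66, so no direction is given for this gene. Without wild-type replicate 1, 2 or 3 this list gave 4 rises each time, and 8, 4 and 4 falls. Of the 4 measured granulocyte markers 2 fell, with a summed intensity of 76.6 to 84.7 in leukemia against 114 to 519 in wild-type. Of 8 macrophage and dendritic cell markers, of which Csf1r is itself 1, 7 fell. Of 6 megakaryocyte and platelet markers 5 fell and 1 rose. The Runx target list shares further genes with the marker lists. These are Cd14 of the macrophage markers, Pf4 and Itga2b of the megakaryocyte markers, and Kit and Cd34 of the progenitor markers. The part of cell makeup in these falls was not tested.

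**Figure D4:**
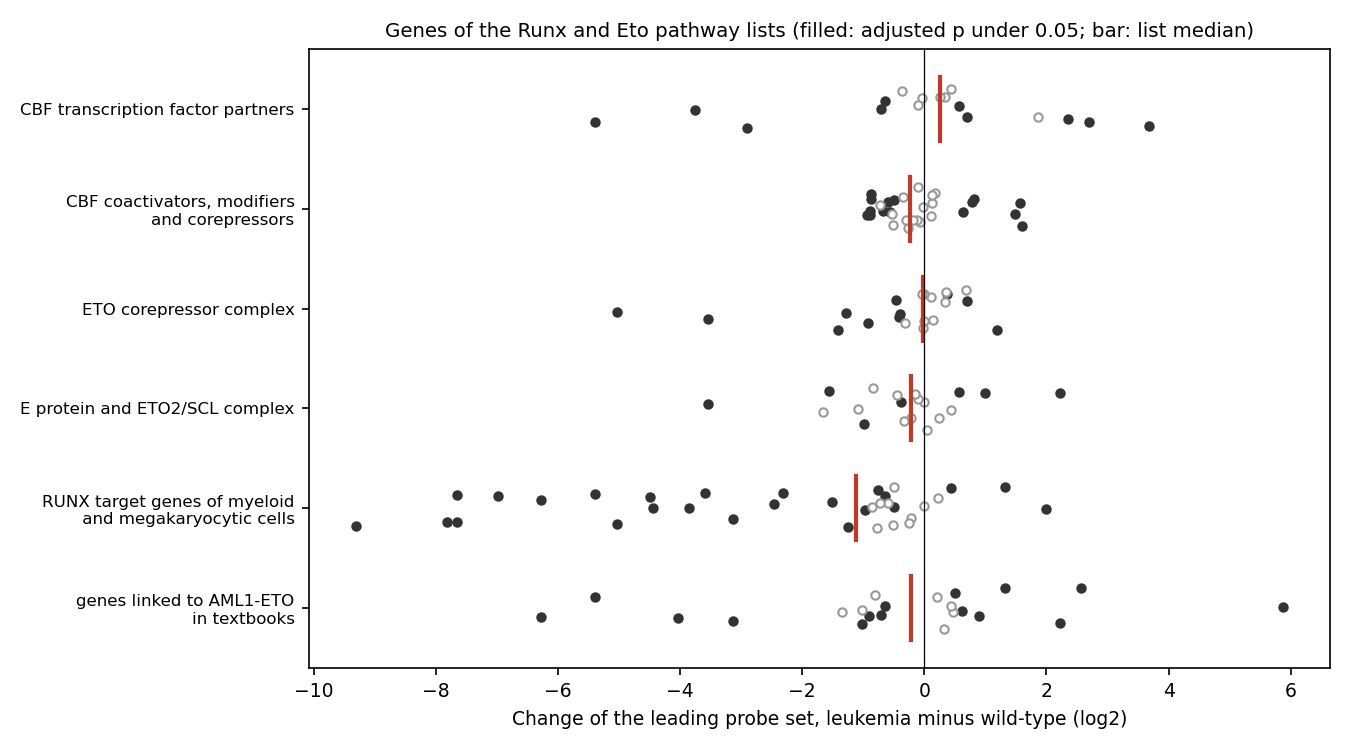
Change from wild-type to leukemia on the log2 scale (horizontal axis) for the measured genes of 6 pathway lists, 1 point per gene by its brightest probe set, filled where the adjusted p was under 0.05, with red bars at the list medians. The Runx target genes spread furthest to lower values, to -9.31 as measured against leukemia values under the dim limit, and their median lies at -1.11, while the other 5 medians lie between -0.23 and 0.26.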

How the data were processed

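Values came from 1 series table of 6 arrays (3 leukemia, 3 wild-type, grouped by sample title; 0 columns unmapped). The deposited intensity values were linear, from 3.31 to 18869, and the authors used RMA, per the submitters' processing notes. The sources used here do not give its version. The other values deposited, the array run records, served only to group arrays by hybridization date entry. This grouping is called the fluidics run here (2 runs, 1 chip lot, per those records).

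Log2 was taken with no pseudocount. All 28782 probe sets other than 39 controls, dim ones included, entered 1 fit in R 4.3.3 with limma 3.58.1 (eBayes on lmFit, moderated along intensity, two-sided, Benjamini-Hochberg over all probe sets, threshold 0.05, no covariate, 4 residual degrees of freedom). Intervals of 95% come from that fit. A gene's leading probe set had the highest mean over the 6 arrays. Symbols came from the platform annotation, and only probe sets with 1 symbol (23750) were named. List genes were named as the 2 largest changes per direction past the threshold with groups that did not overlap, and further ones were chosen after their values were seen. The members, lists and tests were chosen with earlier results of these data known. Because the labels do not say that the samples of a group came from separate animals in both groups, p-values speak to the spread among these samples alone, which may be technical. Motifs were searched in the RefSeq promoter table with Python 3.11.15, which held 6 of the 7 genes, and figures were drawn with matplotlib 3.10.9. Alternatives covered the filter on dim probe sets, the pseudocount, the scaling, the moderation, array weights, blocks for replicate number and fluidics run, leaving out each array, and 1 probe set per gene.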

Additional observations from a re-analysis of the deposited data

How the results depend on the processing

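The count of 11 changed probe sets among the 21 (8173 among all) stayed within 1.5 times under most settings. It was 6 with probe sets below the 60th percentile left out (4950 among all) and 3 with 1 probe set per gene (4518 among all), where 11 and 6 of the 21 could be tested. With each array left out it ranged from 2 to 11 (4729 to 9555 among all). Of the changes of single probe sets, that of Cbfb turned sign with arrays centred (0.024) and with single arrays left out (range -0.15 to 0.049), and that of Cbfa2t3 with 1438705_at without leukemia replicate 1 (0.060, the highest, against -0.60 for the lowest with an array left out). None of the turned values passed the test, and the cause was not tested. Under the settings tried no other probe set changed direction. The replicate block called 9 of the 21 and 6713 of all. The labels do not say whether equal numbers mark paired samples. Same-numbered arrays deviated from their group means with correlations of -0.08, 0.02 and 0.02, which cannot settle this with 3 arrays a group. Blocked on the fluidics run 11 were called, of which 6 were among those called without it.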
